A study of Homo sapiens with 8 samples.

Results

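The genes of sterol and fatty acid synthesis were followed in SEM, an established human cell line derived from a B-cell precursor leukaemia with an MLL/AF4 fusion. The set was named gene by gene: enzymes of the mevalonate, sterol and fatty acid routes, the regulators of the SREBP system and the proteins of cholesterol transport, 36 genes in all. A probe was found for 35 of them, of 18205 genes with a probe in the series. They had 53 of the 39421 probes, and 43 of these 53 had a value on all 8 arrays. FDFT1 was not analysed here. By role, 7 genes belong to the mevalonate route, 11 to the steps from squalene to cholesterol, 5 to the SREBP regulators, 6 to cholesterol transport and storage, and 7 to the fatty acid route.

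Total RNA was hybridised to Illumina bead arrays, with 1 array per treatment and day. The cells labelled siMLL/AF4 were electroporated with siRNA against the fusion transcript and harvested on days 2, 4 and 6, after 1, 2 and 3 pulses. The siCtrl cells received a control siRNA at the same times and were harvested on the same days. The MOCK cells were pulsed without siRNA and taken on days 2 and 4 only, so every sample of the study had been electroporated. All 8 arrays came from 1 cell line, and the labels do not say whether the days were separate cultures. The p-values below therefore measure how a treatment difference varied between days or, for day 4 against day 2, how that difference varied between treatments. They do not measure a spread between replicates of 1 day, and the number of arrays limits their precision. Levels are given as log2 intensities, on the reading that the deposited numbers are natural logs, which no source states. Were they logs to base 2, all log2 levels and differences would be 0.693 times as large. Day 6 was read on a newer array version than days 2 and 4, so levels are compared only within a day or between days 2 and 4.

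Cells make cholesterol from acetyl-CoA through mevalonate, farnesyl diphosphate, squalene and lanosterol, and they make fatty acids from the same precursor through malonyl-CoA. Both routes are under the SREBP transcription factors, which the escort protein SCAP carries out of the endoplasmic reticulum when sterols are scarce and which the INSIG proteins hold back when sterols are plentiful. Dividing leukaemia cells use both products to build membranes, and INSIG1, SREBF1 and most of the enzymes are themselves known SREBP targets.

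With siMLL/AF4, most of the enzyme genes had lower average levels than with siCtrl, while NPC1 and NPC2, of lysosomal cholesterol export, had higher ones. Apart from MVK, which with siMLL/AF4 fell below the median probe of the array on days 4 and 6, ACACA and SCD had the largest mean differences over the 3 days. ACACA, acetyl-CoA carboxylase, was at -1.11 ± 0.23 on the log2 scale (SE, n = 3 days), and SCD, stearoyl-CoA desaturase, at -1.05 ± 0.24. Against MOCK the fitted difference was 0.03 ± 0.30 for ACACA and -0.72 ± 0.28 for SCD. For siCtrl minus MOCK it was 1.14 ± 0.30 for ACACA, whose difference from siCtrl was thus not seen against MOCK. NPC1, which moves cholesterol out of lysosomes, was higher by 0.57 ± 0.25, and NPC2 by 0.37 ± 0.25. Against MOCK the fitted differences were 1.26 ± 0.29 for NPC1 and -0.03 ± 0.27 for NPC2. NPC1 was also higher with siCtrl than with MOCK, by 0.70 ± 0.29. Of the 35 genes with a probe, 32 were bright enough to be tested, and 23 of these 32 were lower on average, against 50.8% of all genes tested. Their median difference was -0.47, against -0.0054 over all 9096 genes. No gene of the set passed the test over all genes with limma: 0 of 32 had an adjusted p under 0.05, as 0.0% of all genes did, and the smallest adjusted p of the set was 0.496, for ACACA. At an unadjusted p under 0.05, 6 were lower (ACACA, FADS1, FASN, LSS, MSMO1 and SCD), against 3.49% of all genes in that direction, and 0 were higher, against 3.9%. With a trended robust variance in limma 1 gene of the set passed, ACACA (adjusted p = 0.0445), where 0.121% of all genes were called lower and 0.352% in either direction. With an offset of 64 before the log 0 of the set passed, where 0.167% were called lower and 0.456% in either direction.

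**Figure D1:**
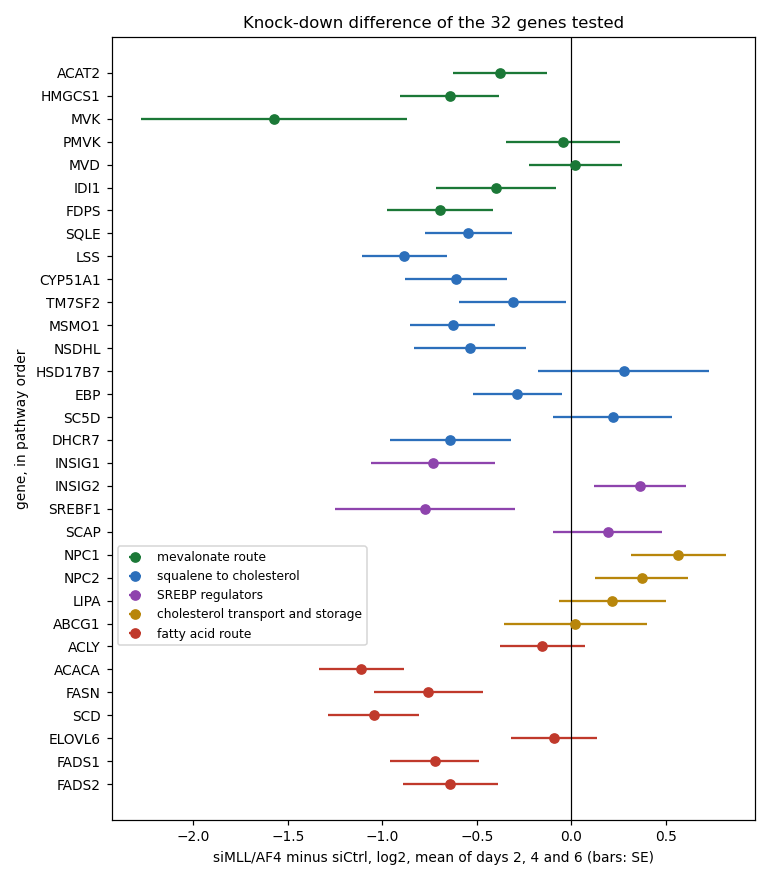
Fitted log2 difference of siMLL/AF4 minus siCtrl (horizontal axis) for each of the 32 genes tested (vertical axis, in pathway order), averaged over days 2, 4 and 6. Points are limma estimates, bars are their SE and colours are the roles. All 7 fatty acid genes lie left of 0 and all 4 genes of cholesterol transport and storage lie right of it.

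On all 3 days, 17 of the 32 genes were lower with siMLL/AF4 than with siCtrl, where 14.6% of all genes were. These 17 held 6 of 7 genes of the fatty acid route, 7 of 10 of the steps from squalene to cholesterol, 3 of 7 of the mevalonate route, 1 of 4 SREBP regulators and 0 of 4 genes of transport and storage. Higher on all 3 days were 3 genes, INSIG2, NPC1 and NPC2, where 14.6% of all genes were. The members of the fatty acid route had median differences of -0.30, -0.93 and -0.85 on days 2, 4 and 6, those from squalene to cholesterol -0.53, -0.55 and -0.41, and those of the mevalonate route -0.28, -0.53 and -0.29. Transport and storage genes had medians of 0.19, 0.55 and 0.41, and all genes tested had 0.091, -0.019 and -0.068. The labels of the arrays were checked on the genes joined in the fusion. The KMT2A probe differed between siMLL/AF4 and siCtrl by -0.49, -0.55 and -0.53 on days 2, 4 and 6, and both AFF1 probes were lower on each day, by -0.35 to -2.02. Against MOCK, KMT2A was not lower, at 7.17 and 6.42 with siMLL/AF4 and 7.11 and 6.38 with MOCK on days 2 and 4. The AFF1 probes had no common direction there, at 7.16 and 6.01 with siMLL/AF4 and 6.01 and 6.07 with MOCK for one, and 7.90 and 7.88 with siMLL/AF4 and 8.50 and 7.75 with MOCK for the other.

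The promoters of 5 genes of the set are shown as examples. Those of SCD, INSIG1 and SREBF2 carry the core or the whole of the sterol element searched, and those of HMGCS1 and LSS carry CCAAT boxes without it. They are the 250 bases before an annotated start in RefSeq, on GRCh38.p14, and read 5′ to 3′ on the strand of the gene. HMGCS1 has another annotated start, with a window at chr5:43313132-43313431 that held no CCAAT box or sterol match. That stretch is not shown. Capitals mark CCAAT boxes (CCAAT, or ATTGG on the other strand) and matches to a sterol regulatory element or its core. SCD lies at chr10:100346983-100347232 on the plus strand, INSIG1 at chr7:155297628-155297877 on the plus strand, HMGCS1 at chr5:43313413-43313662 on the minus strand, LSS at chr21:46228775-46229024 on the minus strand and SREBF2 at chr22:41832855-41833104 on the plus strand.
SCD: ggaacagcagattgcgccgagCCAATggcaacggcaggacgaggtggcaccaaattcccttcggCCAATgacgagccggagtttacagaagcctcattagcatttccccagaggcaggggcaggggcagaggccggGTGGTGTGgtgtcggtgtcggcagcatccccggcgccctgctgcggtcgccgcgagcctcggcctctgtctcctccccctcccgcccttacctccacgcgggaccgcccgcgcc
INSIG1: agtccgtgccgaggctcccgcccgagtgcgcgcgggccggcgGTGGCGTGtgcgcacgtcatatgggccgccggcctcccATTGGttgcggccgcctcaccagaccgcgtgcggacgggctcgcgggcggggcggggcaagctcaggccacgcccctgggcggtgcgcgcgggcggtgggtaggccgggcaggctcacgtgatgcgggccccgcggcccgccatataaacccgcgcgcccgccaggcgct
HMGCS1: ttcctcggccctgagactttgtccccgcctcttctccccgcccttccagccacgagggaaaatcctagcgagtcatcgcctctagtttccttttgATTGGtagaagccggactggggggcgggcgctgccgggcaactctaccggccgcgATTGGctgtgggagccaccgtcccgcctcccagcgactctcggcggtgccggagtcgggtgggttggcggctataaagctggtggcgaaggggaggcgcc
LSS: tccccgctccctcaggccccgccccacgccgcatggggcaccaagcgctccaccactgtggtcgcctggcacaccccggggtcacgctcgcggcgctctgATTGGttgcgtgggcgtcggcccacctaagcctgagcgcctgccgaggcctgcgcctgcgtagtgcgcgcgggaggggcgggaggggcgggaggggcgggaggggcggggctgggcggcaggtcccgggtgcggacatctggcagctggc
SREBF2: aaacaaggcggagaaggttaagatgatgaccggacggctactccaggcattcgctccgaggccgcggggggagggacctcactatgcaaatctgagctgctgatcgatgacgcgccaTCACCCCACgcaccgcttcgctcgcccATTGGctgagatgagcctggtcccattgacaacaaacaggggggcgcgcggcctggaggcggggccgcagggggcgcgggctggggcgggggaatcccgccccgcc

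Promoter windows of 250 bases before to 50 after the start were on hand for 31 of the 36 genes, 44 windows in all, and ACAT2, FDFT1, SQLE, ABCG1 and FASN had none. Each was searched on both strands. The sterol regulatory element TCACNCCAC was found in 1 of the 44 windows, that of SREBF2, where the match begins at position -133 with the annotated start as 0, and in 1.13% of all 35116 windows. A shorter core, CACNCCAC, chosen after the longer form gave a single match and overlapping it, was in 8 windows of 7 genes (18.2% of the windows), IDI1, SC5D, INSIG1, SREBF2, ABCA1, ACACA and SCD, and in 5.87% of all windows. CCAAT, a box bound by the factor NF-Y, was in 27 of the 44 windows (61.4%), against 34.6% of all. The GC box GGGCGG, known to be bound by SP1, was in 39 (88.6%), against 45.0% of all. HMGCS1 and SCD each show a pair of CCAAT boxes in the sequences above, and LSS and INSIG1 show 1 each. The HMGCS1 window that is not shown had none. Windows of 1 gene can overlap, and a match is a description of letters, not of a bound site.

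The first gene of the mevalonate route, ACAT2, whose enzyme joins acetyl-CoA units, had log2 levels of 12.10, 11.61 and 11.25 with siMLL/AF4 on days 2, 4 and 6. With siCtrl it had 12.14, 12.26 and 11.69, and with MOCK 12.80 and 12.45 on days 2 and 4. HMGCS1, the synthase that makes HMG-CoA, had 11.72, 10.86 and 11.11 with siMLL/AF4, 12.57, 11.74 and 11.31 with siCtrl and 12.10 and 11.41 with MOCK. For both genes the siMLL/AF4 array was the lowest of its day on every day, with the narrowest gap for ACAT2 on day 2. The fitted difference from siCtrl was -0.64 ± 0.26 (SE) for HMGCS1 (limma, adjusted p = 0.676) and -0.38 ± 0.25 for ACAT2 (limma, adjusted p = 0.816). MVK, mevalonate kinase, had 6.49, 4.55 and 2.26 with siMLL/AF4, against 6.03, 6.65 and 5.35 with siCtrl and 7.35 and 7.34 with MOCK. Its siMLL/AF4 array lay above siCtrl on day 2 and below it on days 4 and 6. The median probe of each array had a level of 5.16. MVK lay below that level with siMLL/AF4 on days 4 and 6, where the size of a log difference is uncertain. On the other arrays MVK lay above it. Its fitted difference of -1.57 ± 0.70 was the largest of the set in size and had an adjusted p of 0.714 (limma).

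The next enzymes of this route gave smaller or mixed differences. PMVK, phosphomevalonate kinase, differed by 0.57, -0.53 and -0.17 from siCtrl on days 2, 4 and 6, and MVD, which decarboxylates the product, by -0.28, 0.05 and 0.30. IDI1, the isomerase of the isoprene unit, had 8.64, 9.39 and 10.78 with siMLL/AF4, against 9.71, 9.22 and 11.07 with siCtrl and 8.77 and 9.22 with MOCK, and was thus clearly lower than siCtrl on day 2 only. FDPS, which makes farnesyl diphosphate, had 6.61, 7.17 and 8.84 with siMLL/AF4, against 7.85, 7.52 and 9.34 with siCtrl and 8.13 and 7.71 with MOCK. It was the lowest on each day with siMLL/AF4, most so on day 2, with a fitted difference of -0.69 ± 0.28 (SE; limma, adjusted p = 0.675).

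In the steps from squalene to cholesterol, SQLE, squalene epoxidase, had 11.85, 10.96 and 11.02 with siMLL/AF4 at its brighter probe, against 12.38, 11.66 and 11.43 with siCtrl and 12.04 and 11.54 with MOCK. LSS, lanosterol synthase, had 9.70, 8.03 and 7.70 with siMLL/AF4, against 10.47, 8.88 and 8.74 with siCtrl and 10.30 and 9.76 with MOCK. Both genes were lowest with siMLL/AF4 on each day, and the 3 daily differences of LSS, -0.76, -0.85 and -1.04, were close to each other. The fitted difference was -0.88 ± 0.23 (SE) for LSS (limma, adjusted p = 0.586) and -0.54 ± 0.23 for SQLE (limma, adjusted p = 0.681). The probes of LSS did not have a common sign. A second probe gave -0.67, -1.25 and 0.15, and the third, which was dim in all treatments, gave 2.20, 0.32 and 0.16. Of the 10 genes with several probes measured on all 6 siRNA arrays, LSS was the exception, and in the other 9 the mean difference was negative at every such probe.

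CYP51A1, MSMO1 and NSDHL, which take methyl groups off lanosterol, were lower on all 3 days. CYP51A1, the lanosterol demethylase, differed by -1.02, -0.62 and -0.19 from siCtrl, and MSMO1, a methylsterol oxidase, by -0.72, -0.68 and -0.49 at its brightest probe. NSDHL, a sterol dehydrogenase, differed by -0.02, -0.49 and -1.10, so its day 2 levels, 8.38 with siMLL/AF4 and 8.40 with siCtrl, were nearly equal. TM7SF2, a sterol reductase, differed by 0.10, -0.20 and -0.83. HSD17B7, a ketosterol reductase, stood apart: it had 9.41, 10.96 and 12.95 with siMLL/AF4, against 10.06, 10.94 and 11.50 with siCtrl and 10.37 and 10.31 with MOCK. It was the lowest on day 2 with siMLL/AF4, level with siCtrl on day 4 and above it on day 6. Whether this probe also reads transcripts of pseudogene copies listed in RefSeq was not tested.

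Of the last enzymes, EBP, a sterol isomerase, had 10.14, 10.37 and 10.78 with siMLL/AF4, against 10.67, 10.51 and 10.97 with siCtrl and 11.58 and 11.26 with MOCK. SC5D, a sterol desaturase, differed from siCtrl by 0.41, -0.47 and 0.72. DHCR7, the reductase that ends one branch of the pathway, had 9.19, 7.48 and 7.94 with siMLL/AF4 at its brighter probe, against 9.35, 8.83 and 8.36 with siCtrl and 9.89 and 9.21 with MOCK. EBP and DHCR7 were lowest with siMLL/AF4 on each day, and the gap to siCtrl was widest on day 4 for DHCR7. The second DHCR7 probe differed from siCtrl by 0.30, -0.48 and -0.43, so on day 2 the probes disagreed in sign and the place of DHCR7 below siCtrl on every day rests on the brighter one. The fitted differences were -0.29 ± 0.23 (SE) for EBP (limma, adjusted p = 0.852) and -0.64 ± 0.32 for DHCR7 (limma, adjusted p = 0.747).

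**Figure D2:**
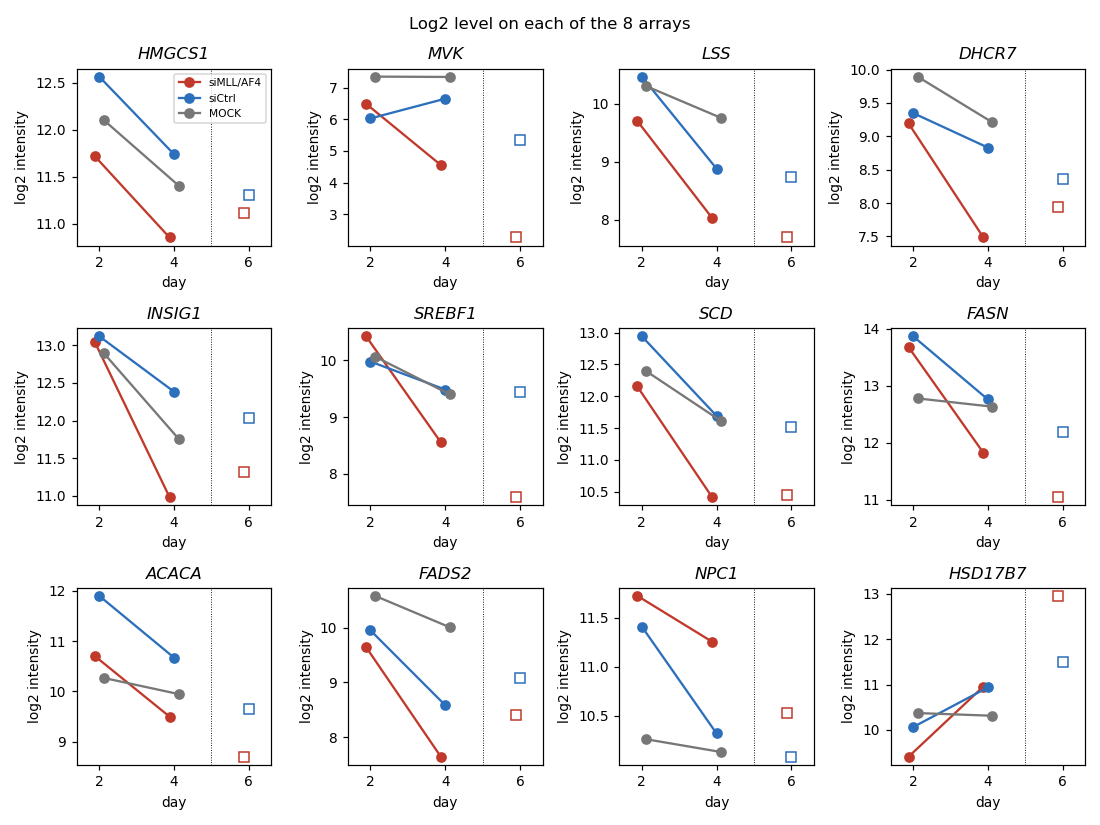
Log2 level (vertical axis) by day (horizontal axis) on each of the 8 arrays for 12 genes at the probe used in the tests, 1 array per point, with siMLL/AF4 in red, siCtrl in blue and MOCK in grey. Filled points are the older array version, open squares right of the dotted line the newer one. In HMGCS1, LSS, DHCR7, SCD and FADS2 the red point is the lowest on every day, while in NPC1 it is the highest.

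Among the SREBP regulators, INSIG1, the sterol-responsive anchor, had 13.05, 10.98 and 11.31 with siMLL/AF4 at its brighter probe, against 13.12, 12.38 and 12.03 with siCtrl and 12.90 and 11.76 with MOCK. The arrays were close to each other on day 2, and siMLL/AF4 was the lowest on day 4 and below siCtrl on day 6. The dimmer INSIG1 probe differed from siCtrl by -0.56, -1.28 and -2.08. SREBF1, a SREBP transcription factor gene that drives mainly fatty acid synthesis, had 10.42, 8.56 and 7.59 with siMLL/AF4, against 9.98, 9.48 and 9.44 with siCtrl and 10.06 and 9.40 with MOCK. It was the highest on day 2 with siMLL/AF4 and the lowest of its day afterwards, with daily differences of 0.45, -0.93 and -1.84 from siCtrl. Its second probe differed by -0.60, -1.50 and -1.18, so the probes disagreed in sign on day 2.

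INSIG2, the second anchor gene, had 9.79, 9.36 and 8.52 with siMLL/AF4, against 9.18, 9.32 and 8.07 with siCtrl and 8.96 and 9.08 with MOCK, and was highest with siMLL/AF4 on each day, narrowly so on day 4. SCAP, the escort, differed from siCtrl by 0.76, 0.02 and -0.20. SREBF2, the SREBP gene that drives mainly cholesterol synthesis, was too dim on day 6 for the knock-down test. Its levels were 4.43, 1.47 and 1.45 with siMLL/AF4, 4.16, 3.35 and 5.10 with siCtrl and 5.34 and 3.85 with MOCK, below the median probe on every array but that of MOCK on day 2. The fitted differences of the tested regulators were -0.73 ± 0.33 (SE) for INSIG1 and -0.77 ± 0.48 for SREBF1 (limma, adjusted p = 0.714 and 0.797), and 0.36 ± 0.24 for INSIG2 and 0.19 ± 0.29 for SCAP (limma, adjusted p = 0.821 and 0.928).

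The 4 genes of cholesterol transport and storage that were tested all had fitted differences above 0, but that of ABCG1 was -0.18 without day 4 and -0.26 without day 6, and that of LIPA was -0.04 without day 2. NPC1 had 11.72, 11.26 and 10.53 with siMLL/AF4, against 11.41, 10.32 and 10.08 with siCtrl and 10.26 and 10.13 with MOCK. NPC2, its soluble partner in the lysosome, had 11.91, 12.55 and 11.98 with siMLL/AF4, against 11.84, 11.87 and 11.61 with siCtrl and 12.37 and 12.14 with MOCK. NPC1 was highest with siMLL/AF4 on each day, and NPC2 was above siCtrl on each day but below MOCK on day 2. LIPA, the lysosomal acid lipase that frees cholesterol from its esters, differed from siCtrl by 0.73, -0.24 and 0.15, and ABCG1, a cholesterol efflux pump, by -0.94, 0.43 and 0.58 at a probe that was dim on days 2 and 4. The fitted differences were 0.57 ± 0.25 (SE) for NPC1 and 0.37 ± 0.25 for NPC2 (limma, adjusted p = 0.708 and 0.817). The sterol carrier gene STARD4 failed the filter on level and the efflux pump gene ABCA1 had a value on only 4 of the 8 arrays, and no difference is given for them.

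In the fatty acid route, ACLY, which supplies acetyl-CoA in the cytosol, differed little from siCtrl, by -0.09, -0.28 and -0.10. ACACA had 10.71, 9.50 and 8.70 with siMLL/AF4, against 11.90, 10.67 and 9.66 with siCtrl and 10.27 and 9.95 with MOCK. Its siMLL/AF4 array lay below siCtrl by about the same amount on each day, -1.20, -1.17 and -0.96, but above MOCK on day 2. A second ACACA probe gave -1.18, -1.08 and -1.13. FASN, fatty acid synthase, had 13.68, 11.83 and 11.05 with siMLL/AF4, against 13.87, 12.76 and 12.19 with siCtrl and 12.78 and 12.63 with MOCK. It too was above MOCK on day 2 and below it on day 4. SCD had 12.15, 10.42 and 10.44 with siMLL/AF4, against 12.94, 11.69 and 11.52 with siCtrl and 12.39 and 11.61 with MOCK, and was the lowest on each day with siMLL/AF4.

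The enzymes that lengthen and further desaturate fatty acids were split. ELOVL6, an elongase, differed by 0.08, -0.17 and -0.19 from siCtrl. FADS1, a desaturase of polyunsaturated fatty acids, had 11.01, 9.96 and 10.83 with siMLL/AF4, against 11.47, 10.82 and 11.68 with siCtrl and 11.60 and 11.66 with MOCK. FADS2, the other such desaturase, had 9.65, 7.64 and 8.41 with siMLL/AF4, against 9.95, 8.58 and 9.09 with siCtrl and 10.58 and 10.01 with MOCK. Both desaturase genes kept 1 order on days 2 and 4, lowest with siMLL/AF4, then siCtrl, then MOCK. The fitted differences were -0.76 ± 0.29 (SE) for FASN, -0.72 ± 0.24 for FADS1 and -0.64 ± 0.25 for FADS2 (limma, adjusted p = 0.671, 0.613 and 0.671), and those of ACACA and SCD had adjusted p-values (limma) of 0.496 and 0.549.

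Day by day, without a test, most of the 32 genes differed by less than 2-fold at the probe tested. On day 2 the 4 genes at least 2-fold lower with siMLL/AF4 than with siCtrl were ACACA, CYP51A1, FDPS and IDI1, where 7.08% of all genes were. On day 4 they were 5, ACACA, DHCR7, INSIG1, MVK and SCD, where 4.46% were, and on day 6 they were 6, FASN, LSS, MVK, NSDHL, SCD and SREBF1, where 11.0% were. At least 2-fold higher were 0 genes on day 2, where 7.42% of all genes were, 0 on day 4, where 5.46% were, and 1 on day 6, HSD17B7, where 7.96% were. No gene of the set was 2-fold lower on all 3 days by these lists, which use the probe tested. The second ACACA probe was, at -1.18, -1.08 and -1.13. Whether the difference moved with day was tested as an interaction with 1 residual degree of freedom: 0 of 32 genes passed (limma), as 0.0% of all genes did. At an unadjusted p under 0.05 there were 3, MVK at -1.77 per 2 days, SREBF1 at -1.14 and HSD17B7 at 1.05 (limma, adjusted p = 0.284, 0.287 and 0.314), where 7.31% of all genes were so in the lower and 4.74% in the higher direction. The difference became lower with day in 18 of the 32, as it did in 56.9% of all genes.

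MOCK, the pulse without siRNA, gave a second comparison on days 2 and 4. It shares the siMLL/AF4 arrays with the comparison above, and siCtrl against MOCK shares arrays with both, so the values are only set side by side. Against MOCK, 18 of the 32 genes tested were lower with siMLL/AF4 on both days, where 30.2% of all genes were, and 5 were higher, where 35.8% were. The 18 held 6 of 7 mevalonate genes, 9 of 10 genes from squalene to cholesterol and 3 of 7 fatty acid genes (FADS1, FADS2 and SCD). The higher ones were ELOVL6, INSIG2, LIPA, NPC1 and SCAP. With siCtrl, 13 were lower than MOCK on both days, where 40.2% of all genes were, and 12 were higher, where 34.0% were. Of these 13, all but NPC2 were among the 18 that lay below MOCK with siMLL/AF4. They held 5 of 7 mevalonate genes and 5 of 10 genes from squalene to cholesterol. The fitted difference from MOCK was -0.95 with siMLL/AF4 and -0.91 with siCtrl for PMVK. It was -0.49 and -0.51 for MVD, and -2.20 and -0.63 for MVK. EBP was below MOCK by -1.45 and -0.89 with siMLL/AF4 and by -0.91 and -0.75 with siCtrl, and FADS2 by -0.93 and -2.36 with siMLL/AF4 and by -0.63 and -1.42 with siCtrl. ACACA differed from MOCK by 0.44 and -0.45 with siMLL/AF4, while siCtrl lay above MOCK by 1.63 and 0.72. FASN differed by 0.90 and -0.81 with siMLL/AF4 and by 1.09 and 0.13 with siCtrl.

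Below both siCtrl and MOCK on days 2 and 4 were 13 of the 32 genes with siMLL/AF4 at the probe tested, where 9.3% of all genes were: ACAT2, HMGCS1 and FDPS of the mevalonate route, SQLE, LSS, CYP51A1, MSMO1, NSDHL, EBP and DHCR7 of the steps to cholesterol, and SCD, FADS1 and FADS2 of the fatty acid route. Above both on days 2 and 4 were INSIG2, NPC1 and SCAP, 3 genes, where 13.4% of all genes were. In the fit over all 8 arrays, in which day 6 adds to the estimate of spread and to the siRNA contrast, siMLL/AF4 minus MOCK was -1.66 ± 0.35 (SE) for FADS2, -1.15 ± 0.24 for EBP, -1.20 ± 0.33 for LSS, -1.18 ± 0.31 for FADS1, -1.16 ± 0.34 for DHCR7 and 1.26 ± 0.29 for NPC1. The same difference was 0.03 ± 0.30 for ACACA and -0.05 ± 0.42 for FASN. For siCtrl minus MOCK they gave 1.14 ± 0.30 and 0.70 ± 0.42. With limma 0 of 32 genes passed for siMLL/AF4 minus MOCK, as 0.0% of 8886 genes did, and the adjusted p was 0.160 for FADS2, EBP and NPC1. At an unadjusted p under 0.05, 12 were lower, where 9.59% of all genes were, and 1 was higher, where 11.8% were. On average 23 of the 32 were lower, where 49.7% of all genes were, and the median of the set was -0.35, against 0.0038 over all genes. With a trended robust variance in limma 5 of the set passed: FADS1, FADS2, LSS and EBP were lower, where 2.15% of all genes were called lower, and NPC1 was higher, with 4.22% called in either direction and adjusted p-values of 0.0230 to 0.0407. With an offset of 64 DHCR7 and TM7SF2 passed as well, where 2.5% of all genes were called lower and 4.74% in either direction. For siCtrl minus MOCK the median of the set was 0.0098, with 16 genes lower, where 52.0% of all genes were, 16 higher and 0 that passed (limma; 0.0% of all genes). At an unadjusted p under 0.05, EBP, FADS2, PMVK and TM7SF2 were lower and ACACA and ELOVL6 were higher, where 8.18% and 11.7% of all genes were.

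**Figure D3:**
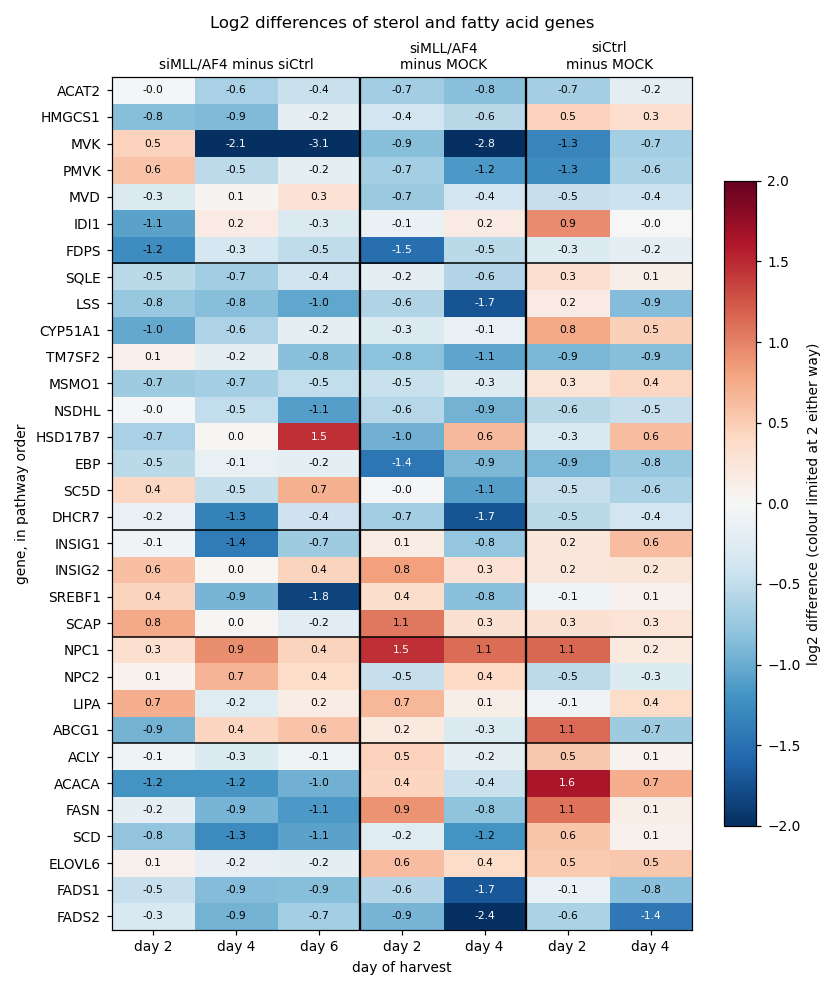
Log2 differences of the 32 genes (rows, in pathway order, with lines between the roles) on each day, for siMLL/AF4 minus siCtrl (left), siMLL/AF4 minus MOCK (middle) and siCtrl minus MOCK (right). Blue is lower and red is higher, with colours limited to a difference of 2 either way and the values printed in the cells. SCD and LSS are blue in all 5 columns of siMLL/AF4, while ACACA is blue in the 3 columns against siCtrl and red in both columns of siCtrl minus MOCK.

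Many of the genes also had lower levels on day 4 than on day 2, in the control treatments as well. The median change of the mevalonate genes was 0.04 with siMLL/AF4, -0.30 with siCtrl and -0.32 with MOCK. Within the older array version, 33 genes of the set could be tested, SREBF2 among them, and 19 had lower levels on day 4 in all 3 treatments, where 20.6% of all genes did. These 19 held 6 of 7 fatty acid genes, 7 of 10 genes from squalene to cholesterol, 4 of 5 SREBP regulators, 1 of 4 genes of transport and storage and 1 of 7 mevalonate genes, HMGCS1. PMVK was higher in all 3, where 20.4% of all genes were. The fitted difference of day 4 minus day 2 was -1.32 ± 0.34 (SE) for FADS2, -1.31 ± 0.32 for INSIG1, -1.27 ± 0.31 for LSS, -1.26 ± 0.27 for SCD and -0.80 ± 0.20 for HMGCS1. SREBF2 gave -1.76 ± 0.46, but at a probe below the median probe on 5 of these 6 arrays, where the size of a log difference is uncertain. With limma 0 of 33 passed, as 0.0% of 10230 genes did, with an adjusted p of 0.461 for each of these 6. At an unadjusted p under 0.05, 12 were lower, where 6.3% of all genes were, and 0 were higher, where 4.15% were. On average 29 of the 33 were lower, where 49.7% of all genes were, with a median of -0.44 against 0.0036 over all genes.

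By treatment, the median of day 4 minus day 2 over the 33 genes was -0.78 with siMLL/AF4, -0.49 with siCtrl and -0.32 with MOCK, against -0.12, 0.087 and 0.021 over all genes. At least 2-fold lower on day 4 were 12 genes with siMLL/AF4 (9.15% of all genes), 7 with siCtrl (9.78%) and 2 with MOCK, INSIG1 and SREBF2 (4.93%). FASN differed by -1.85 with siMLL/AF4, -1.11 with siCtrl and -0.14 with MOCK, and FADS2 by -2.00, -1.37 and -0.57 in the same order. INSIG1 differed by -2.06 with siMLL/AF4, -0.74 with siCtrl and -1.14 with MOCK. HSD17B7 went the other way with siRNA, at 1.55 with siMLL/AF4 and 0.87 with siCtrl, and was at -0.06 with MOCK. The order siMLL/AF4 lowest, then siCtrl, then MOCK was seen for 10 of the 33 genes, where 16.9% of all genes had it, and 5 of the 10 were fatty acid genes (ACLY, FADS1, FADS2, FASN and SCD). Day 4 followed a second pulse, so time in culture and number of pulses cannot be told apart.

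**Figure D4:**
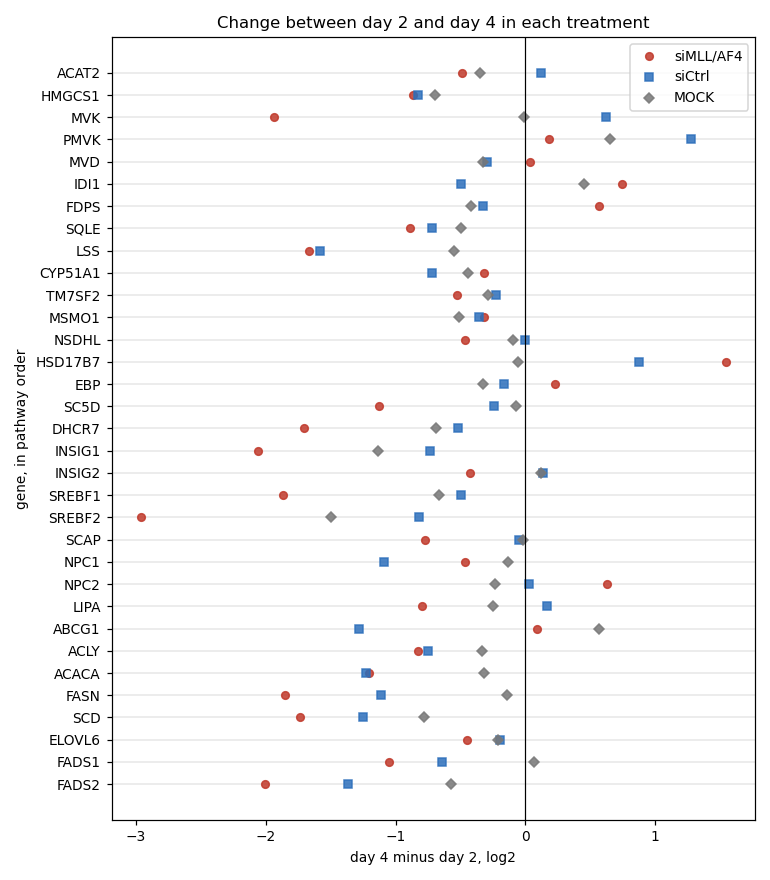
Day 4 minus day 2 on the log2 scale (horizontal axis) for the 33 genes tested (vertical axis, in pathway order) in each treatment, 1 array per treatment and day. Red circles are siMLL/AF4, blue squares siCtrl and grey diamonds MOCK. The circles of SREBF2, INSIG1 and FADS2 lie near -2 or left of it, and most symbols lie left of 0 in each treatment.

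Neighbouring genes of the pathway, listed outside the set, did not pass either. In the knock-down test 0 of 13 genes of the isoprenoid branch, 0 of 21 of fatty acid elongation and activation, 0 of 11 of SREBP processing and turnover, 0 of 18 of LXR and sterol transport and 0 of 9 partners of the sterol enzymes had an adjusted p under 0.05 (limma). Nor did any of the 9096 genes tested (0.0%), so these counts do not set the lists apart. Lower and higher on average were 7 and 6 in the isoprenoid branch, 15 and 6 in fatty acid elongation and activation, 5 and 6 in SREBP processing, 8 and 10 in sterol transport and 5 and 4 among the partners. Of all genes tested, 50.8% were lower on average. The medians of the lists were -0.070, -0.15, 0.0063, 0.036 and -0.042 in the same order. Lower on all 3 days were 1, 10, 2, 2 and 0 of their genes, where 14.6% of all genes were. Higher on all 3 days were 0, 4, 2, 5 and 0, where 14.6% were. In the fatty acid list ME1, the malic enzyme that supplies NADPH, was higher by 1.16 ± 0.27 (SE), while AGPAT2, an acyltransferase of lipid synthesis, differed by -0.75 ± 0.22 and SLC25A1, the citrate carrier, by -0.58 ± 0.27. In sterol transport SMPDL3A, a phosphodiesterase gene known as an LXR target, was higher by 1.00 ± 0.29 and VLDLR, a lipoprotein receptor, differed by -0.85 ± 0.23. MYLIP, which marks lipoprotein receptors for degradation, was higher by 0.49 ± 0.26, and SCARB1, the HDL receptor, differed by -0.47 ± 0.29. The adjusted p-values (limma) were 0.553 for ME1 and 0.586 for AGPAT2, SMPDL3A and VLDLR.

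Most proliferation markers also had lower average levels. Of 12 such genes tested, 11 were lower on average with siMLL/AF4 than with siCtrl, where 50.8% of all genes were, and 0 passed (limma; 0.0% of all genes). On all 3 days 3 of the 12 were lower, where 14.6% of all genes were. The list had medians of -0.15, -0.25 and -0.32 on days 2, 4 and 6. MKI67, the Ki-67 antigen, differed by -1.25, -1.15 and -1.12, and PLK1, a mitotic kinase, by 1.43, -0.24 and -4.32. The summed linear intensity of the list was 31525 to 46055 with siMLL/AF4, 37933 to 45063 with siCtrl and 40644 to 42187 with MOCK. The siRNA ranges include day 6 on the newer array version, which MOCK lacks, so they cannot be compared with that of MOCK. The part of these markers in the result was not tested. In such bulk RNA, fewer cells of a type and less RNA per cell cannot be told apart.

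The arrays carried the label of the line in part. Of 11 B-precursor markers with a probe, 6 (CD79A, CD79B, EBF1, VPREB1, IGLL1 and CD22) were at or above the median probe on all 8 arrays. The others, BLNK, CD24, DNTT, PAX5 and RAG1, were below it or without a value on most arrays. The share of all genes that met this rule was not worked out. Of other lineages, 2 of 9 myeloid, 1 of 10 T and NK cell and 0 of 5 erythroid markers were at or above the median on all arrays. The summed linear intensity of the myeloid list was 478 to 1953 with siMLL/AF4, 384 to 1449 with siCtrl and 409 to 675 with MOCK. The siRNA ranges include day 6 on the newer array version, which MOCK lacks, so they cannot be compared with that of MOCK. On day 6 LYZ had 10.42 with siMLL/AF4 and 9.27 with siCtrl. Its levels on days 2 and 4, 5.83 to 7.54 over all treatments, were read on the older version. Day and array version cannot be told apart, so those of day 6 cannot be compared with them. The part of the myeloid list in the results was not tested. The siMLL/AF4 array of day 6 had Spearman correlations across probes of 0.824 to 0.849 with the arrays of days 2 and 4, and the siCtrl array of day 6 had 0.860 to 0.880, against 0.903 to 0.925 among the older arrays. Without day 6 the median of the set in the knock-down test was -0.40.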

How the data were processed

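Biotin-labelled total RNA of 8 SEM samples was put on Illumina bead arrays, per the labels, and the day 6 samples stand in a table of their own, of a newer array version. The authors used GenomeStudio, per the submitters' processing notes, with no version. The method of background correction and of normalization is not given in the sources used here. Values in the deposited tables were taken to be on a natural log scale, since the brightest probe is then 38664 in linear units and would be 1512 on base 2. Log2 levels are these values over the natural log of 2, with no further normalization. Null entries, 28.5% to 28.8% of probes per array, counted as missing. Of the probes, 27210 have 1 symbol in the platform annotation, 8 have several and 12203 are not listed there.

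Only probes with no missing value in a fit were tested, 1 per gene (the brightest). Their mean in each array version had to reach the 50th percentile of all probes with missing entries set to the lowest value, a log2 level of 2.02 to 2.17 for the older version and 3.51 for the newer one. The median probe named in the text, at 5.16, is that of the probes with a value. limma 3.58.1 in R 4.3.3 (lmFit, eBayes) gave two-sided p-values, adjusted by Benjamini-Hochberg over all genes, with a threshold of 0.05. The knock-down fit held the 6 siRNA arrays and had 2 residual degrees of freedom. Contrasts with MOCK came from a fit of all 8 arrays. Both had day as a block: the replicate number in the labels is the time point, so it pairs arrays of 1 harvest day and array version. Day 4 against day 2 used the 6 older arrays with treatment as a block. Any member could be named, and up to 4 genes of a neighbouring list, by size of difference. Members, lists and tests were chosen with earlier results of these data known. Alternatives changed the filter, probe choice, offset (16 or 64), normalization, variance model, block, control arrays, log base and time points; those for the count of genes lower on every day were added after seeing the data. Fits were tested on simulated data. Figures used matplotlib 3.10.9.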

Additional observations from a re-analysis of the deposited data

How the results depend on the processing

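The counts of genes passing depended on the filter and the variance model. For siMLL/AF4 against siCtrl, 19 genes passed (limma) with probes under the 70th percentile left out, 3 with an offset of 16, 41 with an offset of 64 and 32 with a trended robust variance. Of the sterol and fatty acid genes, 1 passed under the trended robust variance, ACACA (limma, adjusted p = 0.0445, range 0.0445 to 1.00 over all alternatives), where 0.121% of all genes were called lower. For siMLL/AF4 against MOCK, 97 genes passed with the stricter filter, 4 with an offset of 16, 420 with an offset of 64 and 375 with a trended robust variance. Of the set, 7 passed there with an offset of 64 (FADS1, FADS2, LSS, DHCR7, EBP and TM7SF2 lower, NPC1 higher; 4.74% of all genes) and 5 with a trended robust variance (FADS1, FADS2, LSS and EBP lower, NPC1 higher; 4.22%). The cause was not tested. For siCtrl against MOCK 0 genes passed under every alternative run. The median of the set for siCtrl minus MOCK lay near 0 and had no stable sign: it was 0.0098 as reported, but -0.054 with no filter on level, -0.042 with the mean of probes, -0.053 with either offset, -0.0020 without day 6 and -0.10 without the block. The other medians of the set kept their sign under the alternatives run. The fitted difference changed sign under at least 1 alternative for 8 of 32 genes in siMLL/AF4 minus siCtrl (ABCG1, ELOVL6, HSD17B7, LIPA, MVD, PMVK, SC5D and SCAP), 8 of 32 in siMLL/AF4 minus MOCK, 9 of 32 in siCtrl minus MOCK and 2 of 33 in day 4 minus day 2, and none of these values passed the test.

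Without the time point as a block the pairing of arrays by day was lost, and 0 genes passed in the knock-down fit and in both fits against MOCK. The medians of the set were then -0.47 for siMLL/AF4 minus siCtrl, -0.52 for siMLL/AF4 minus MOCK and -0.10 for siCtrl minus MOCK. The first could not change, since each day holds 1 array of both siRNA treatments. Leaving out 1 time point gave medians from -0.47 to -0.38, from -0.54 to -0.27 and from -0.0020 to 0.19 for the same comparisons, with 0 genes called. The 17 genes lower on every day were 17 with quantile normalization and 18 with each day centred. When 1 time point was left out they were 17 to 22, where 24.7% to 31.8% of all genes were lower. Fewer days are then asked for, so that count could not fall below 17 and does not test it. Replication of 1 array per treatment and day and a newer array version on day 6 limit all values. So do the dim probe of SREBF2 and the low levels of MVK with siMLL/AF4 on days 4 and 6 for these genes.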

Other observations

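Several probes of the set were dim or had missing entries and entered no test. STARD4, a sterol carrier gene, had log2 levels of 3.53, 1.13 and 4.43 with siMLL/AF4 on days 2, 4 and 6, against 2.09, 3.80 and 1.45 with siCtrl and, on day 4, 2.55 with MOCK. ABCA1 had a value on 1 siMLL/AF4 array, 4.78 on day 4, on 1 siCtrl array, 3.90 on day 2, and on both MOCK arrays, 3.42 and 2.68. A second ACAT2 probe, dim on most arrays, had 3.53, 4.71 and 3.64 with siMLL/AF4, against 4.24, 5.55 and 6.90 with siCtrl.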
